A study of Mus musculus with 72 samples.

Results

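The genes described here are 10 genes of fatty acid synthesis in mouse skeletal muscle: Srebf1, Acly, Acaca, Acacb, Mid1ip1, Thrsp, Fasn, Elovl6, Scd1 and Scd2. They were taken by name, as the probe sets that the array's annotation gives to those symbols, and the set of names was drawn up with earlier results of these data known. All 10 had 1 probe set each, out of 20239 probe sets with a gene symbol and 21225 in all. The values are log2 signals, so a difference of 1 is a doubling of the array signal, and signals of different genes were not compared with each other.

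Total RNA of the soleus (SOL), a mostly slow muscle, and of the tibialis anterior (TA), a mostly fast muscle, was hybridised to whole-transcript arrays. The mice were males of 5 months on a C57BL/6 background. In the knockout animals (mKO) a floxed Bmal1 gene was cut by a Cre recombinase that the Mlc1f promoter drives in muscle fibres, and the controls (Ctrl) were littermates without Cre, so the action of the recombinase and that of the deletion cannot be told apart. All animals lived under 12 hours of light, from ZT0 to ZT12, and 12 hours of darkness, and could eat chow and drink at any time. Feeding times and food intake are not part of the data, and a rhythm is described here by the time of day alone. Both muscles of 36 animals were taken, 3 animals for each genotype at ZT0, ZT4, ZT8, ZT12, ZT16 and ZT20, which gave 24 groups of 3 arrays and 72 arrays.

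Fatty acid synthesis turns surplus carbohydrate into fat. Citrate leaves the mitochondrion and is split by Acly into acetyl-CoA, the acetyl-CoA carboxylases Acaca and Acacb make malonyl-CoA, Fasn builds palmitate from it, Elovl6 lengthens palmitate, and Scd1 and Scd2 insert the first double bond. Srebf1 encodes the transcription factor SREBP-1, which insulin and liver X receptors activate and which switches these genes on after a meal, while Mid1ip1 binds and activates acetyl-CoA carboxylase and its paralogue Thrsp (Spot 14) pairs with Mid1ip1. In muscle, malonyl-CoA also blocks the entry of fatty acids into mitochondria, and mice eat mostly in the dark.

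The arrays matched their labels in muscle and genotype. The mean signal of 8 slow-fibre genes was 13.2 in Ctrl SOL and 8.01 in Ctrl TA. Dbp, a direct target of BMAL1, fell by 0.69 on the log2 scale in mKO SOL and by 1.56 in mKO TA. The Bmal1 gene itself (Arntl) kept its mean signal (SOL difference 0.09 with adjusted p 0.508, TA difference -0.07 with adjusted p 0.465), but its fitted daily amplitude was 1.34 in Ctrl and 0.59 in mKO SOL, and 1.09 and 0.33 in TA. A probe set that lies outside the deleted part of a gene cannot check the deletion, and the position of this one was not examined. The TA array of Ctrl ZT0 replicate A carried liver transcripts: the mean of 15 liver genes was 10.7 there and at most 7.53 on any other array, and Ctrl ZT4 replicate C had 7.53 in TA and 7.25 in SOL. The animal numbers fall into 3 series, BM3 with 23 animals, BM2* with 7 and BM2 with 6, whose meaning the labels do not state. They partly follow the groups: every animal of ZT0 and ZT4 was BM3, every animal of ZT12 was BM2 or BM2*, and at ZT20 all Ctrl were BM3 and all mKO BM2, so at ZT20 series and genotype cannot be told apart.

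The first comparison asks how loss of BMAL1 in muscle fibres changed the level of these genes over the day. In SOL, 1 of the 10 genes passed the test, Mid1ip1, which was lower in mKO. In TA, 5 of 10 passed: Mid1ip1, Acaca, Acacb and Scd1 were lower in mKO and Srebf1 was higher. Over all genes tested, 7.1% passed in SOL and 14.8% in TA, where 6.76% were higher in mKO and 8.06% lower. The median difference of the 10 genes was -0.04 in SOL and -0.06 in TA, against 0.00 and 0.02 over all genes. The test was limma on the mean of the 6 times, 18 animals against 18, with p-values adjusted over all 20239 genes by Benjamini-Hochberg and called under 0.05.

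Srebf1, the transcription factor of the pathway, was the 1 gene that was higher in mKO TA. Its Ctrl TA signals were 8.68, 9.14 and 8.74 at ZT0, 8.61, 8.80 and 8.83 at ZT4, 8.70, 9.002 and 8.72 at ZT8, 8.53, 8.60 and 8.47 at ZT12, 8.37, 8.67 and 8.51 at ZT16, and 8.80, 8.80 and 8.89 at ZT20. The mKO TA signals were 9.25, 9.18 and 9.05, then 8.83, 9.19 and 9.04, then 9.08, 8.90 and 8.77, then 8.69, 8.42 and 8.74, then 8.89, 8.93 and 8.89, and 8.88, 9.02 and 9.06 at the same times. The mKO mean was higher at 6 of 6 times, and at ZT16 alone all 3 mKO animals lay above all 3 Ctrl animals. The share of all genes that separate in this way was not counted, so such counts only describe each gene here. Srebf1 was higher in mKO TA by 0.22 ± 0.0474 (SE), which is 1.16-fold (adjusted p 0.0012, limma). Among BM3 animals alone the Srebf1 difference was 0.30 (adjusted p 0.00573), and among BM2 and BM2* animals it was 0.08 (adjusted p 0.884). In SOL the Srebf1 difference was 0.07 ± 0.0395 (adjusted p 0.386).

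Acly, the ATP-citrate lyase that makes cytosolic acetyl-CoA, did not pass the test in either muscle. Its 18 Ctrl SOL signals ran from 7.42 through a median of 7.63 to 7.86, and its mKO SOL signals from 7.41 through 7.62 to 8.14. The Acly difference was 0.02 in SOL (95% interval -0.08 to 0.11) and 0.00 in TA (interval -0.09 to 0.09).

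The 2 carboxylases were lower in mKO TA. Acaca, the cytosolic enzyme of fatty acid synthesis, had Ctrl TA signals of 7.35, 7.35 and 6.72 at ZT0, 7.13, 6.74 and 7.04 at ZT4, 7.56, 7.39 and 6.88 at ZT8, 6.89, 6.80 and 6.86 at ZT12, 7.36, 6.77 and 7.55 at ZT16, and 7.09, 7.20 and 6.86 at ZT20. In mKO TA, Acaca gave 6.96, 6.89 and 6.25, then 6.37, 7.09 and 6.45, then 7.01, 6.38 and 6.52, then 5.95, 6.54 and 6.37, then 6.38, 7.02 and 6.60, and 6.91, 6.94 and 6.91. The mKO mean was lower at 6 of 6 times, while single animals overlapped at all times except ZT12. Acaca fell by 0.44 ± 0.0948 in mKO TA, which is 1.36-fold (adjusted p 0.00109, limma). The Acaca difference was close to this value in both parts of the animals, -0.52 among BM3 (adjusted p 0.0116) and -0.51 among BM2 and BM2* animals (adjusted p 0.146). In SOL the Acaca difference was -0.05, with a 95% interval from -0.16 to 0.07. Acacb, whose malonyl-CoA limits fatty acid entry into mitochondria, was lower in mKO TA by a small amount. Its 18 Ctrl TA signals ran from 10.33 through a median of 10.48 to 10.74, and the mKO signals from 10.27 through 10.39 to 10.56. All 3 mKO animals were below all 3 Ctrl animals at ZT4, ZT12 and ZT16. Acacb fell by 0.11 ± 0.0307 (1.08-fold, adjusted p 0.0141), and at ZT12 alone by 0.28 (adjusted p 0.0345). The Acacb difference did not pass within either part of the animals (-0.05, adjusted p 0.452, in BM3 and -0.23, adjusted p 0.248, in BM2 and BM2*).

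**Figure D1:**
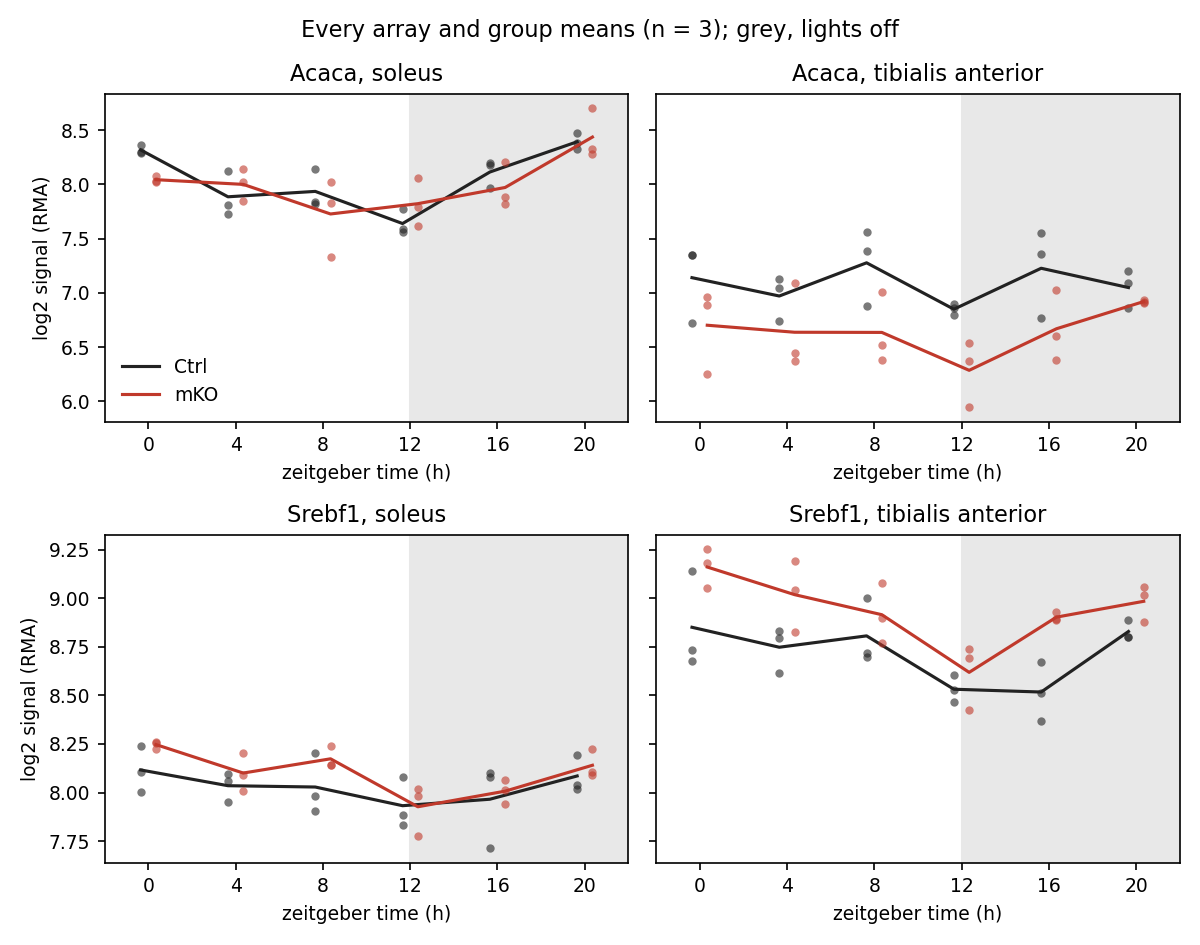
Log2 signal of Acaca (top) and Srebf1 (bottom) in SOL (left) and TA (right) against zeitgeber time in hours. Points are single animals, lines join means of 3 animals, black is Ctrl, red is mKO, and grey marks lights off. In TA the red Acaca line lies below the black line at 6 of 6 times and the red Srebf1 line above it at 6 of 6.

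Mid1ip1, the activator of acetyl-CoA carboxylase, had the largest genotype difference of the 10 genes in both muscles. In Ctrl SOL its signals were 8.52, 8.92 and 8.61 at ZT0, 8.11, 8.09 and 8.28 at ZT4, 8.85, 9.18 and 8.90 at ZT8, 9.77, 9.10 and 9.77 at ZT12, 9.65, 9.59 and 9.51 at ZT16, and 9.23, 9.25 and 9.23 at ZT20. In mKO SOL they were 8.40, 8.50 and 8.25, then 8.04, 8.45 and 8.30, then 8.26, 8.46 and 8.36, then 8.72, 8.59 and 8.75, then 8.73, 8.76 and 8.96, and 8.74, 8.82 and 8.49. The 3 mKO animals lay below the 3 Ctrl animals at 5 of 6 times, and only at ZT4, the daily low of Ctrl, did the groups overlap. In Ctrl TA, Mid1ip1 gave 8.25, 8.20 and 8.03 at ZT0, 7.85, 8.03 and 7.92 at ZT4, 8.48, 8.36 and 8.53 at ZT8, 8.95, 8.89 and 9.18 at ZT12, 9.16, 9.30 and 9.19 at ZT16, and 8.68, 8.71 and 8.73 at ZT20. In mKO TA it gave 7.67, 7.91 and 7.96, then 7.36, 7.69 and 7.93, then 7.50, 7.63 and 7.41, then 7.81, 8.11 and 8.04, then 7.57, 8.21 and 8.13, and 7.68, 7.80 and 7.79. The same 5 times separated the genotypes in TA, and ZT4 did not.

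Averaged over the day, Mid1ip1 fell by 0.50 ± 0.0555 in mKO SOL, which is 1.41-fold (adjusted p 8.18e-08, limma). In TA it fell by 0.79 ± 0.0537, which is 1.73-fold (adjusted p 1.88e-12), with the mKO mean lower at 6 of 6 times. Tested at single times, the Mid1ip1 difference in SOL passed at ZT8 (-0.62, adjusted p 0.0163), ZT12 (-0.86, adjusted p 0.000359), ZT16 (-0.77, adjusted p 0.00144) and ZT20 (-0.56, adjusted p 0.0343), where 0.86%, 0.751%, 0.944% and 1.04% of all genes passed. In TA it passed at ZT8 (-0.94, adjusted p 2.05e-05), ZT12 (-1.02, adjusted p 5.43e-06), ZT16 (-1.24, adjusted p 2.1e-07, 2.36-fold) and ZT20 (-0.95, adjusted p 2.05e-05), where 2.03%, 2.52%, 2.02% and 1.99% of all genes passed. The difference at ZT0 was -0.30 in SOL and -0.31 in TA, at ZT4 it was 0.10 and -0.27, and none of these 4 passed. Over all genes, 0.553% passed at ZT0 and 0.44% at ZT4 in SOL, and 1.63% and 1.67% in TA. Over the 10 genes and 6 times, 4 of 60 tests passed in SOL, all of Mid1ip1, and 5 of 60 in TA, 4 of Mid1ip1 and 1 of Acacb. With the animal series as a block the Mid1ip1 calls at ZT20 were lost, with -0.34 (adjusted p 0.838) in SOL and -0.70 (adjusted p 0.244) in TA, and so was that of Acacb at ZT12 in TA (adjusted p 0.0577). Both genotypes have BM3 animals at ZT0, ZT4, ZT8 and ZT16, and a fit on BM3 animals alone was added after seeing the data. There, Mid1ip1 in TA passed at ZT8 (-0.85, adjusted p 0.0189) and ZT16 (-1.19, adjusted p 0.00629), and in SOL it passed at ZT16 (-0.83, adjusted p 0.0312) but not at ZT8 (-0.65, adjusted p 0.0599). Among BM3 animals, which include all of ZT0 and ZT4, the mean Mid1ip1 difference in SOL was -0.33 (adjusted p 0.0699), and that in TA was -0.55 (adjusted p 0.0016). Among BM2 and BM2* animals the SOL difference was -0.78 (adjusted p 0.0145), and the TA difference was -1.04 (adjusted p 2.46e-05).

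Thrsp, the paralogue of Mid1ip1, did not pass in either muscle. Its difference was -0.06 in SOL (95% interval -0.22 to 0.10) and -0.15 in TA (interval -0.27 to -0.03, adjusted p 0.106). The Thrsp difference in TA passed with Ctrl ZT0 replicate C or Ctrl ZT16 replicate A left out (adjusted p 0.0492 at most) and with arrays weighted by their quality (adjusted p 0.0484).

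**Figure D2:**
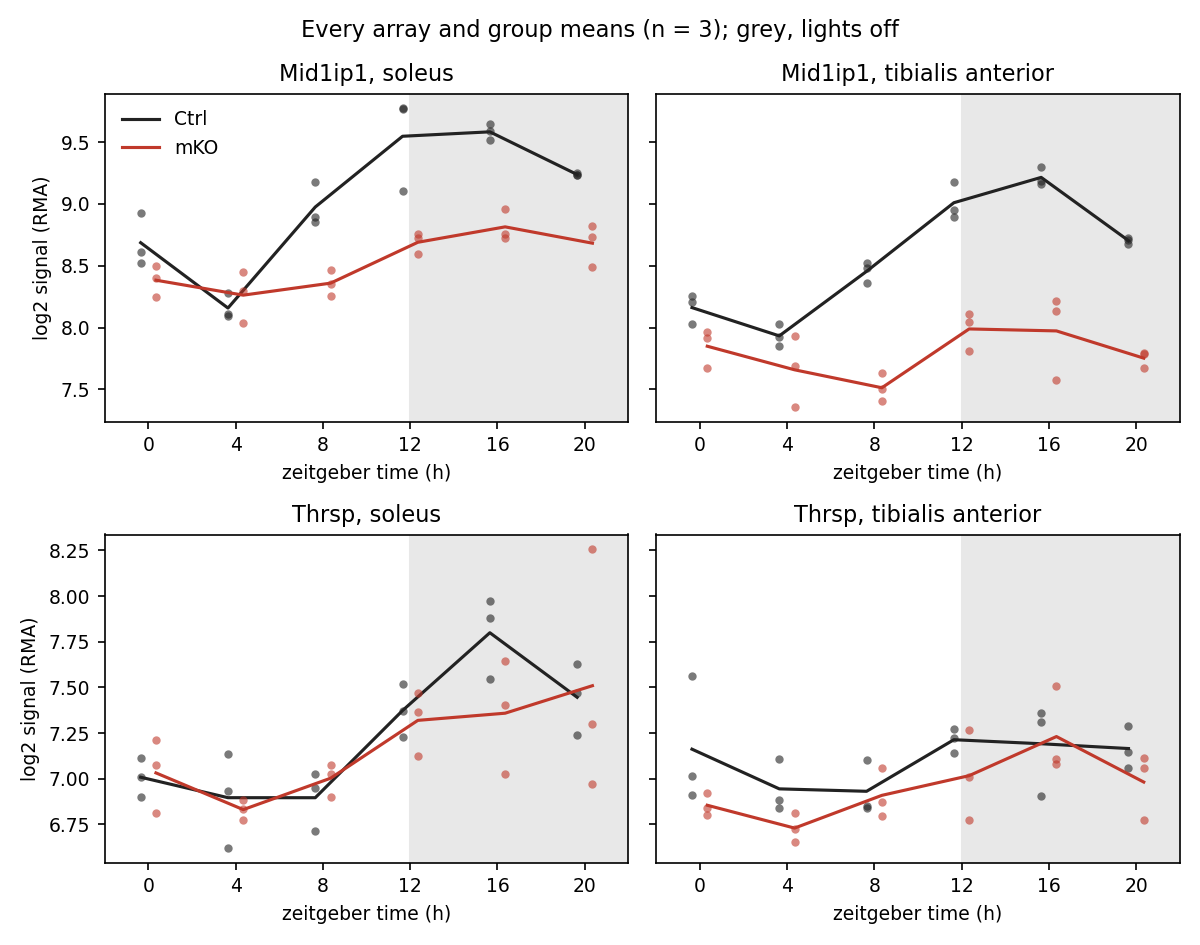
Log2 signal of Mid1ip1 (top) and Thrsp (bottom) in SOL (left) and TA (right) against zeitgeber time in hours. Points are single animals, lines join means of 3 animals, black is Ctrl, red is mKO, and grey marks lights off. Ctrl Mid1ip1 climbs from its low at ZT4 to its high at ZT16 in both muscles, and the red line stays below the black one from ZT8 to ZT20.

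The start regions of Mid1ip1, Thrsp and Fasn are shown because the paralogues Mid1ip1 and Thrsp both rose in the dark in SOL and Fasn is the synthase itself. The sequences are RefSeq's, on assembly GRCm38.p6, from 250 bases before to 50 bases after an annotated start of transcription, on the strand of the gene. Mid1ip1 lies at chrX:10717115-10717414 on the plus strand, Thrsp at chr7:97417501-97417800 on the minus strand, and Fasn at chr11:120824498-120824797 on the minus strand. Capitals mark CCAAT, the CCAAT box, on either strand, where the minus strand reads as ATTGG.
Mid1ip1: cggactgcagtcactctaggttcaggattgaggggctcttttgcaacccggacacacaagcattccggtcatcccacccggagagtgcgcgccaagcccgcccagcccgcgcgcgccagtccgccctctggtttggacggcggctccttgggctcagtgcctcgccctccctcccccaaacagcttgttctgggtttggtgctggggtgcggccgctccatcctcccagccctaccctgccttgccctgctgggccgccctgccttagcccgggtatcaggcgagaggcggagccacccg
Thrsp: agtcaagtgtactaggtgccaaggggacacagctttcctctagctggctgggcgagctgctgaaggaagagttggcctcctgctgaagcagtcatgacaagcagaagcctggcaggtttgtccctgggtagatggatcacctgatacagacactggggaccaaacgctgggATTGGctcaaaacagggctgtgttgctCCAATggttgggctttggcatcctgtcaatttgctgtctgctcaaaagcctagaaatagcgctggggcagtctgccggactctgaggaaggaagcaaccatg
Fasn: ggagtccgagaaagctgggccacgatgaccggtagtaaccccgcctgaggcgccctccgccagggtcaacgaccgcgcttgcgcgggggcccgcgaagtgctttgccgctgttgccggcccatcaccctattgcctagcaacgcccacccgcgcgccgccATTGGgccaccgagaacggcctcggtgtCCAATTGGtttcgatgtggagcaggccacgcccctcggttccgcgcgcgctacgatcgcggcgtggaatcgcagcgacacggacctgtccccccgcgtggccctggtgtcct
Positions are counted from that annotated start and name the first base of a match. Thrsp had CCAAT matches at -79 and -52, and Fasn had them at -90, -62 and -59, of which the last 2 overlap. Mid1ip1 had none in this window. Of 32851 mouse promoters of the same length, 37.4% hold at least 1 such match. The other motifs searched on both strands were the E-box CACGTG (7.15% of promoters), TCACNCCAC, 1 form of the SREBP element (1.24%), the D-box TTATGTAA (0.938%) and the nuclear receptor half-site AGGTCA (16.3%). Of the 10 genes, 8 had 10 entries in the table, Srebf1 with 3, and Scd1 and Scd2 had none. CACGTG, TCACNCCAC and TTATGTAA were in none of the 10 windows, and AGGTCA was in those of Acacb, Elovl6 and Acly. The windows of Srebf1, Fasn, Acaca and Acacb lie wholly inside the annotated gene, so the region before its outer end was not searched. A match is a description of these letters and not a binding site, and the absence of one says nothing about a factor.

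Fasn, the fatty acid synthase, did not pass the test between genotypes in either muscle. Its 18 Ctrl SOL signals ran from 7.72 through a median of 8.53 to 9.29, and its mKO SOL signals from 7.81 through 8.32 to 9.95. The Fasn difference was -0.10 in SOL (95% interval -0.39 to 0.18) and 0.06 in TA (interval -0.06 to 0.17). Elovl6 gave -0.01 in SOL (interval -0.18 to 0.16) and 0.00 in TA (interval -0.12 to 0.12), and Scd2 gave 0.02 (interval -0.14 to 0.18) and 0.03 (interval -0.14 to 0.19). Scd1, the main desaturase of fat and liver, was lower in mKO TA. Its Ctrl TA signals ran from 8.94 through 9.57 to 11.50, and its mKO TA signals from 8.92 through 9.38 to 9.78. All 3 mKO animals lay below all 3 Ctrl animals at ZT0, ZT16 and ZT20, and the mKO mean was higher at ZT4 and ZT12. Scd1 fell by 0.35 ± 0.111 in mKO TA (1.27-fold, adjusted p 0.0322, limma). The highest Ctrl value, 11.50, was the ZT0 array with liver transcripts, and without that animal Scd1 fell by 0.25 (adjusted p 0.0162). The call was lost, with adjusted p from 0.0517 to 0.061, when mKO ZT8 replicate B or C, Ctrl ZT8 replicate A, mKO ZT12 replicate B, Ctrl ZT12 replicate B or Ctrl ZT16 replicate B was left out. Within series, the Scd1 difference was -0.42 in BM3 (adjusted p 0.152) and -0.07 in BM2 and BM2* animals (adjusted p 0.939).

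The second comparison asks whether the genes followed a daily rhythm and whether it changed in mKO. A cosine curve with a period of 24 hours was fitted, and its amplitude is given on the log2 scale as the distance from the mean to the peak. In Ctrl, Mid1ip1 had the largest amplitude of the 10 genes in both muscles, with a peak near ZT15, early in the dark phase. Acaca, Scd2, Fasn and Elovl6 peaked later, between ZT21.5 and ZT0.5, where they passed. In SOL, 4 of 10 genes passed in Ctrl (Mid1ip1, Thrsp, Acaca and Scd2) and 3 of 10 in mKO (Mid1ip1, Thrsp and Acaca), where 6.05% and 5.68% of all genes passed. In TA, 4 of 10 passed in Ctrl (Mid1ip1, Fasn, Scd2 and Elovl6) and 1 of 10 in mKO (Srebf1), where 2.7% and 1.76% of all genes passed. The median amplitude of the 10 genes was 0.23 in Ctrl SOL, 0.16 in mKO SOL, 0.22 in Ctrl TA and 0.19 in mKO TA, against 0.07, 0.08, 0.07 and 0.07 over all genes.

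Mid1ip1 swung by 2.69-fold in Ctrl SOL and 2.43-fold in Ctrl TA between the means of ZT4 and ZT16. Its fitted amplitude was 0.68 ± 0.0586 in Ctrl SOL (peak ZT15.0, adjusted p 6.24e-10) and 0.63 ± 0.057 in Ctrl TA (peak ZT14.9, adjusted p 7.37e-09). In mKO the Mid1ip1 amplitude was 0.29 ± 0.0586 in SOL (peak ZT16.1, adjusted p 0.0046, and 0.0124 with the series as a block) and 0.17 ± 0.057 in TA (peak ZT16.6, adjusted p 0.281). The difference of the 2 rhythms was tested in 1 model over both genotypes, by an F test of amplitude and peak time together. It passed for Mid1ip1 in TA (adjusted p 0.00645), where the fitted amplitude was lower in mKO by 0.46 ± 0.0807. The amplitude difference had no test of its own, and each adjusted p printed beside one is that of the F test. Only 0.104% of all genes passed the F test in TA, and the other 9 of the 10 genes did not. In SOL the Mid1ip1 amplitude differed by -0.40 ± 0.0829 (mKO minus Ctrl, adjusted p 0.125), and 0 of the 10 genes passed (0.0395% of all genes did, and 1 of the 10 was under an unadjusted 0.05, limma). The Mid1ip1 call in SOL was gained without Ctrl ZT0 replicate B or Ctrl ZT12 replicate B (adjusted p 0.0273 and 0.0242), after quantile normalisation (0.0497) and with the test held to probe sets above the median level (0.0448). Among BM3 animals alone the Mid1ip1 amplitude was 0.74 in Ctrl SOL (adjusted p 2.69e-05), 0.61 in Ctrl TA (adjusted p 0.000656) and 0.28 in mKO SOL (adjusted p 0.0747). The genotype difference in TA was then -0.39 (adjusted p 0.525). BM3 has no animal at ZT12 and no mKO animal at ZT20, so all BM3 rhythms here rest on fewer times, and fewest in mKO.

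Thrsp rose in the dark with Mid1ip1 in SOL. Its Ctrl SOL signals were 7.01, 6.90 and 7.11 at ZT0, 7.13, 6.62 and 6.93 at ZT4, 6.71, 7.03 and 6.95 at ZT8, 7.23, 7.37 and 7.52 at ZT12, 7.97, 7.88 and 7.55 at ZT16, and 7.47, 7.24 and 7.63 at ZT20. Every animal from ZT12 to ZT20 lay above every animal from ZT0 to ZT8. The mKO SOL signals of Thrsp were 6.81, 7.21 and 7.07, then 6.89, 6.84 and 6.77, then 7.08, 6.90 and 7.03, then 7.12, 7.37 and 7.47, then 7.65, 7.40 and 7.03, and 8.26, 7.30 and 6.97, so single dark animals overlapped the light ones. The Thrsp amplitude was 0.46 ± 0.079 in Ctrl SOL (peak ZT16.4, adjusted p 0.00051) and 0.31 ± 0.079 in mKO SOL (peak ZT16.8, adjusted p 0.0313). The mKO call was lost when any of mKO ZT4 replicates A, B and C, mKO ZT8 replicate B and mKO ZT16 replicate A was left out (adjusted p 0.0567 to 0.0789), with the series as a block (0.31, adjusted p 0.0766) and among BM3 animals (0.26, adjusted p 0.2). In TA the Thrsp amplitude was 0.14 in Ctrl (adjusted p 0.48) and 0.21 in mKO (adjusted p 0.13). The genotype difference of the Thrsp rhythm was -0.14 in SOL (95% interval -0.36 to 0.08).

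Acaca was low at ZT12 and high at ZT20 to ZT0 in SOL. Its Ctrl SOL signals were 7.77, 7.56 and 7.59 at ZT12, 8.47, 8.39 and 8.32 at ZT20, and 8.29, 8.30 and 8.36 at ZT0, so every ZT12 value lay below every ZT20 and ZT0 value. The Acaca amplitude was 0.33 ± 0.0646 in Ctrl SOL (peak ZT21.5, adjusted p 0.00254) and 0.28 ± 0.0646 in mKO SOL (peak ZT21.0, adjusted p 0.0168). The mKO call was lost without mKO ZT8 replicate C or mKO ZT20 replicate A (adjusted p 0.0693 and 0.0759) and with the series as a block (0.24, adjusted p 0.0927), and among BM3 animals the Acaca amplitude was 0.26 in Ctrl SOL (adjusted p 0.0338) and 0.07 in mKO SOL (adjusted p 0.862). The BM3 fit lacks ZT12, the time of the lowest Ctrl SOL mean, and in mKO also ZT20, the time of the highest mKO SOL mean. In Ctrl TA the Acaca amplitude was 0.02 (adjusted p 0.994).

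In Ctrl TA, 3 of the 4 genes after malonyl-CoA passed, Fasn, Scd2 and Elovl6, and Scd1 did not. Fasn had an amplitude of 0.27 ± 0.0587 (peak ZT22.1, adjusted p 0.0139), Scd2 of 0.37 ± 0.0893 (peak ZT23.3, adjusted p 0.0353) and Elovl6 of 0.29 ± 0.0685 (peak ZT0.498, adjusted p 0.0334). Fasn signals in Ctrl TA were lowest at ZT12, with 7.25, 7.43 and 7.28, and highest at ZT0, with 8.34, 7.97 and 7.65, where the first value is the array with liver transcripts. With both liver-bearing animals left out, an alternative chosen after seeing the data, the Fasn amplitude was 0.23 (adjusted p 0.0477), that of Scd2 0.43 (adjusted p 0.0125) and that of Elovl6 0.26 (adjusted p 0.106). With the animal series as a block the 3 calls were lost, with adjusted p of 0.0738 for Fasn, 0.326 for Scd2 and 0.244 for Elovl6, and among BM3 animals alone they were lost too (0.751, 0.829 and 0.863). The Scd2 call was also lost when any of 10 Ctrl animals was left out: ZT0 B, ZT4 B, ZT8 C, ZT12 A, B and C, ZT16 A, and ZT20 A, B and C (adjusted p up to 0.126). That of Elovl6 was lost without any of 6, Ctrl ZT0 A, B and C, ZT12 C, and ZT16 B and C (up to 0.148).

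Scd2 in Ctrl SOL had a peak at ZT22.1 with an amplitude of 0.32 ± 0.076 (adjusted p 0.0181). The Scd2 call was lost without Ctrl ZT0 replicate C, Ctrl ZT8 replicate C or Ctrl ZT12 replicate B (adjusted p 0.0521 to 0.0719), with the series as a block (0.121) and among BM3 animals (0.19, adjusted p 0.594). Srebf1 in mKO TA had an amplitude of 0.21 ± 0.0496 with a peak at ZT0.244 (adjusted p 0.0411), and in Ctrl TA of 0.16 (adjusted p 0.193), a difference of 0.05 (95% interval -0.09 to 0.19). The Srebf1 call in mKO TA was lost when any of 12 mKO animals was left out: ZT0 A and B, ZT4 B and C, ZT8 C, ZT12 A, B and C, ZT16 A and C, and ZT20 B and C (adjusted p 0.0519 to 0.173). It was also lost with the series as a block (0.162) and among BM3 animals (0.13, adjusted p 0.757). Scd1, Acacb and Acly passed in neither muscle and neither genotype, and the largest of their 12 amplitudes was that of Scd1 in Ctrl TA, 0.37 ± 0.122 (adjusted p 0.243).

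**Figure D3:**
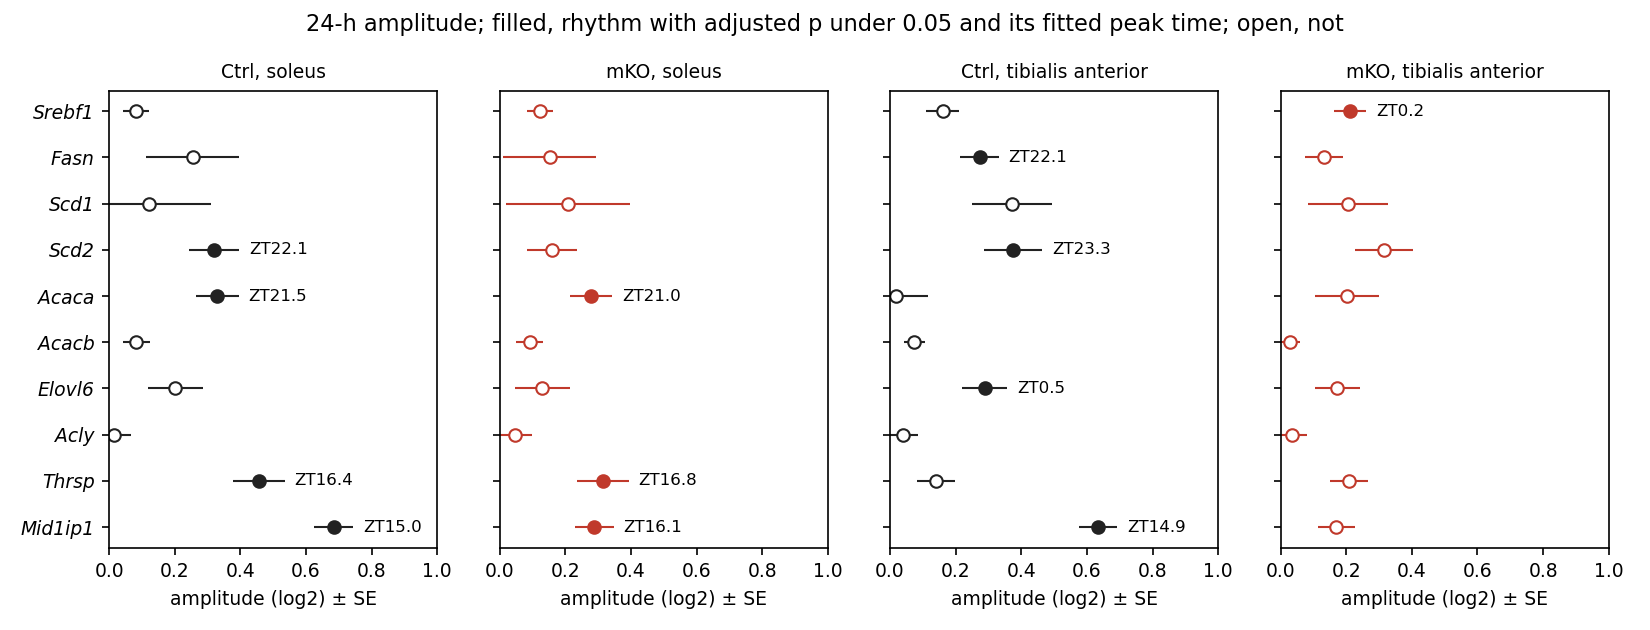
Fitted 24-hour amplitude, in log2 units with its SE, of each of the 10 genes in Ctrl SOL, mKO SOL, Ctrl TA and mKO TA (panels). Filled points passed an adjusted p of 0.05 and carry the fitted peak time; open points did not. Mid1ip1 has the largest Ctrl amplitude in both muscles, 0.68 and 0.63, with peaks at ZT15.0 and ZT14.9.

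A simpler contrast set the dark times ZT16 and ZT20 against the light times ZT4 and ZT8. In Ctrl SOL, Thrsp was higher in the dark by 0.73 ± 0.141 (adjusted p 0.00204) and Mid1ip1 by 0.84 ± 0.0961 (adjusted p 1.33e-06), 2 of the 10 genes where 2.38% of all genes passed. In mKO SOL the same contrast gave 0.52 for Thrsp (adjusted p 0.0371) and 0.44 for Mid1ip1 (adjusted p 0.00617), again 2 of 10, where 3.02% passed. Leaving out any of 9 mKO animals ended the Thrsp call in mKO SOL (ZT4 A, B and C, ZT8 A, B and C, ZT16 A and B, and ZT20 A, adjusted p 0.0542 to 0.124), as did the series as a block (adjusted p 0.0693). The block added a call for Acaca in Ctrl SOL (0.39, adjusted p 0.0203). In Ctrl TA, Mid1ip1 alone passed, higher in the dark by 0.77 ± 0.0931 (adjusted p 1.22e-05), 1 of 10 where 0.934% passed. In mKO TA, 0 of 10 passed where 1.33% of all genes did. The Mid1ip1 contrast there was 0.28 (adjusted p 0.177), and it passed once mKO ZT16 replicate A, the lowest Mid1ip1 value of its group, was left out (0.38, adjusted p 0.0144). The genotype difference of this contrast passed for 0 of 10 genes in SOL, where no gene of 20239 passed and 959 were under an unadjusted 0.05 by limma, and for 0 of 10 in TA, where 0.00988% passed. For Mid1ip1 the SOL value was -0.41 ± 0.136 (adjusted p 0.964), and the TA value was -0.49 ± 0.132 (adjusted p 0.654).

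The third comparison set TA against SOL within the same animals. Most of these genes were lower in the fast TA: in Ctrl, Scd1, Acaca, Fasn, Mid1ip1, Acly, Elovl6 and Acacb were lower and Srebf1 and Scd2 higher. In mKO the same genes passed in the same directions, except that Thrsp passed as lower and Elovl6 did not pass. That is 9 of 10 genes in each genotype, where 42.9% of all genes passed in Ctrl and 48.2% in mKO. Of all genes, 22.9% were higher and 20% lower in TA in Ctrl, and 27.8% and 20.4% in mKO. The median difference of the 10 genes was -0.19 in Ctrl and -0.22 in mKO, against 0.02 and 0.04 over all genes.

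Srebf1 was higher in TA in 18 of 18 Ctrl animals, by between 0.29 and 1.04 with a median of 0.71, and in 18 of 18 mKO animals. Its mean difference was 0.69 ± 0.0495 in Ctrl (1.61-fold, adjusted p 3.96e-13, limma on paired differences) and 0.83 ± 0.0495 in mKO (1.78-fold). Acly was lower in TA in 13 of 18 Ctrl and 16 of 18 mKO animals, with means of -0.20 ± 0.0527 (adjusted p 0.00257) and -0.21 ± 0.0527. Acaca was lower in TA in 18 of 18 animals of each genotype, with differences from -1.64 to -0.26 in Ctrl and from -1.84 to -0.81 in mKO. Its mean difference was -0.96 ± 0.0722 in Ctrl (1.95-fold, adjusted p 1.03e-12) and -1.36 ± 0.0722 in mKO (2.56-fold, adjusted p 2.4e-16). The Acacb difference was -0.13 ± 0.0367 in Ctrl (adjusted p 0.00533) and -0.20 ± 0.0367 in mKO.

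Mid1ip1 was lower in TA in 18 of 18 animals of each genotype, with means of -0.45 ± 0.0487 in Ctrl (adjusted p 3.13e-09) and -0.74 ± 0.0487 in mKO (adjusted p 4.18e-14). Thrsp gave -0.14 in Ctrl (adjusted p 0.0838) and -0.22 ± 0.0626 in mKO (adjusted p 0.004). The Thrsp difference in Ctrl passed when Ctrl ZT0 replicate A, Ctrl ZT16 replicate C, mKO ZT20 replicate A or Ctrl ZT20 replicate B was left out (adjusted p 0.0287 to 0.0449). Among BM3 animals alone, over the times they hold, Thrsp passed in Ctrl (-0.23, adjusted p 0.0183) and not in mKO (-0.11, adjusted p 0.262). Fasn was lower in TA in 18 of 18 animals of each genotype, with means of -0.81 ± 0.107 in Ctrl (1.76-fold, adjusted p 1.54e-07) and -0.65 ± 0.107 in mKO (1.57-fold).

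The desaturases went opposite ways. Scd1 was lower in TA in 17 of 18 Ctrl animals and 18 of 18 mKO animals, and the exception was Ctrl ZT0 replicate A, whose TA carried liver transcripts. Its mean difference was -1.44 ± 0.155 in Ctrl (2.72-fold, adjusted p 2.81e-09) and -1.57 ± 0.155 in mKO (2.97-fold). Scd2, the form abundant in brain, was higher in TA in 15 of 18 animals of each genotype, by 0.38 ± 0.077 (adjusted p 0.000141) and 0.39 ± 0.077. Elovl6 sat at the threshold, with -0.17 ± 0.0689 in Ctrl (adjusted p 0.0417) and -0.16 ± 0.0689 in mKO (adjusted p 0.0523). The Elovl6 call in Ctrl was lost when any of 11 Ctrl animals was left out, ZT0 B and C, ZT4 A and B, ZT8 B and C, ZT12 B and C, ZT16 B and C, and ZT20 B (adjusted p 0.0544 to 0.0952), with the series as a block (0.0672) and among BM3 animals (-0.12, adjusted p 0.249). In mKO, Elovl6 passed without mKO ZT0 C, ZT4 B, ZT8 C, ZT16 C or ZT20 C, or without Ctrl ZT0 A (adjusted p 0.00528 to 0.0449).

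The gap between the muscles widened in mKO for 2 of the 10 genes, where 2.71% of all genes passed this test. For Mid1ip1 the difference of the differences was -0.29 ± 0.0689 (adjusted p 0.0126, limma) and for Acaca -0.40 ± 0.102 (adjusted p 0.0248). The Acaca value was -0.37 with adjusted p 0.0502 and 0.0506 when mKO ZT4 replicate A or mKO ZT8 replicate B was left out, and -0.36 (adjusted p 0.083) with the series as a block. Among BM3 animals alone, Acaca gave -0.42 (adjusted p 0.217) and Mid1ip1 -0.22 (adjusted p 0.52). The next largest was Srebf1 with 0.15 ± 0.07 (adjusted p 0.4). The rhythm itself differed between the muscles for 0 of the 10 genes in Ctrl and 0 of 10 in mKO, where 0.524% and 0.38% of all genes passed and 2 and 0 of the 10 were under an unadjusted 0.05 by limma.

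**Figure D4:**
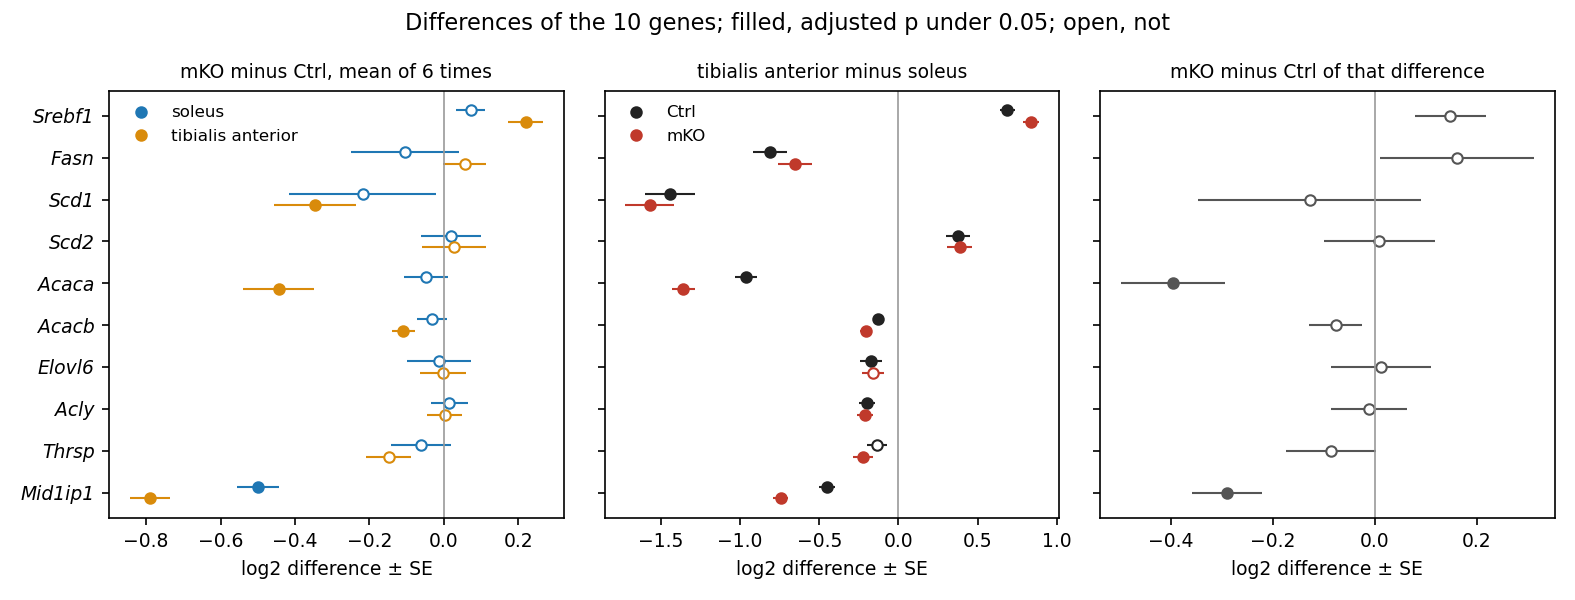
Log2 differences with their SE for the 10 genes: mKO minus Ctrl in SOL (blue) and TA (orange) on the left, TA minus SOL in Ctrl (black) and mKO (red) in the middle, and mKO minus Ctrl of that muscle difference on the right. Filled points passed an adjusted p of 0.05. Mid1ip1 lies at -0.50 and -0.79 on the left, and Acaca and Mid1ip1 alone are filled on the right.

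Fat cells between the fibres also make these enzymes, and their markers moved with several of the genes. In bulk tissue, fewer cells of a type and less RNA per cell cannot be told apart. Of 11 adipocyte markers 10 were measured (such as Adipoq, Plin1 and Retn), and their mean signal ran from 6.30 to 7.25 over the 18 Ctrl SOL arrays and from 6.19 to 7.26 in mKO SOL. In TA it ran from 5.99 to 6.31 in Ctrl and from 5.92 to 6.20 in mKO. In both genotypes 9 of the 10 markers were lower in TA than in SOL. Of all genes, 20% passed as lower in TA in Ctrl and 20.4% in mKO. The genotype effect passed for 1 of 10 markers in SOL (Adig, lower in mKO), where 7.1% of all genes passed. In TA it passed for 2 of 10 (Retn and Adig, both lower), where 14.8% of all genes passed. No marker passed for a daily rhythm in Ctrl SOL, mKO SOL, Ctrl TA or mKO TA by limma. There, 6.05%, 5.68%, 2.7% and 1.76% of all genes passed, in that order. Of the 10 markers, 0, 1, 1 and 1 were under an unadjusted 0.05.

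Within the groups of SOL, the adipocyte mean went with Scd1, Fasn, Thrsp and Scd2. Over 36 SOL arrays, with group means removed, Scd1 had a Pearson r of 0.94 (Spearman rho 0.90) and Fasn of 0.93 (rho 0.91), each with a permutation p of 1e-05, the smallest that 100000 permutations can give, and an adjusted p of 1e-04 over the 20 relations computed. Thrsp had r 0.77 and rho 0.70 (permutation p 0.00017 and 0.00044, adjusted 0.00113 and 0.00293), and Scd2 r 0.62 and rho 0.60 (permutation p 0.00367 and 0.00336, adjusted 0.0183 and 0.0168). Without the 2 arrays farthest from the median the r was 0.91 for Scd1, 0.89 for Fasn, 0.68 for Thrsp and 0.53 for Scd2. Within the BM3 animals (23 arrays) the r was 0.96, 0.96, 0.75 and 0.56, and within the 13 BM2 and BM2* animals 0.92, 0.91, 0.82 and 0.71. Elovl6 (r 0.61, permutation adjusted p 0.0631) and Acly (r 0.45, permutation adjusted p 0.146) did not pass. For Mid1ip1 the r was -0.03 in SOL and -0.12 in TA, and for Srebf1 0.10 and -0.27. In TA, where the markers were lower, no relation was positive and passed, and 1 negative relation passed, that of Acaca (r -0.54, rho -0.48, permutation p 0.0124 and 0.0218, adjusted 0.0495 and 0.077, and r -0.50 without the 2 farthest arrays).

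The SOL array of mKO ZT20 replicate A had the highest adipocyte mean of all, 7.26, and also the highest SOL signals of Fasn (9.95), Thrsp (8.26), Elovl6 (7.59) and Acly (8.14). Ctrl ZT4 replicate A followed with 7.25, and had the highest Scd1 signal, 12.31. With the adipocyte mean as a covariate, the Mid1ip1 and Acaca rhythms in Ctrl SOL had amplitudes of 0.69 and 0.33 and the Thrsp rhythm 0.40 in Ctrl and 0.32 in mKO (adjusted p 1.82e-05 and 0.000557). Under the same covariate the Fasn rhythm passed in SOL, with an amplitude of 0.24 in Ctrl (adjusted p 0.0369) and 0.33 in mKO (adjusted p 0.00263), against 0.25 (adjusted p 0.589) and 0.15 (adjusted p 0.774) without it. The TA minus SOL difference of Scd1 was -1.36 in Ctrl and -1.65 in mKO with the covariate, and that of Fasn -0.76 and -0.71, all passing. In that fit the covariate was the marker difference between the muscles, centred on its mean. The fit therefore keeps the mean marker difference and cannot show what part it has in these values.

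**Figure D5:**
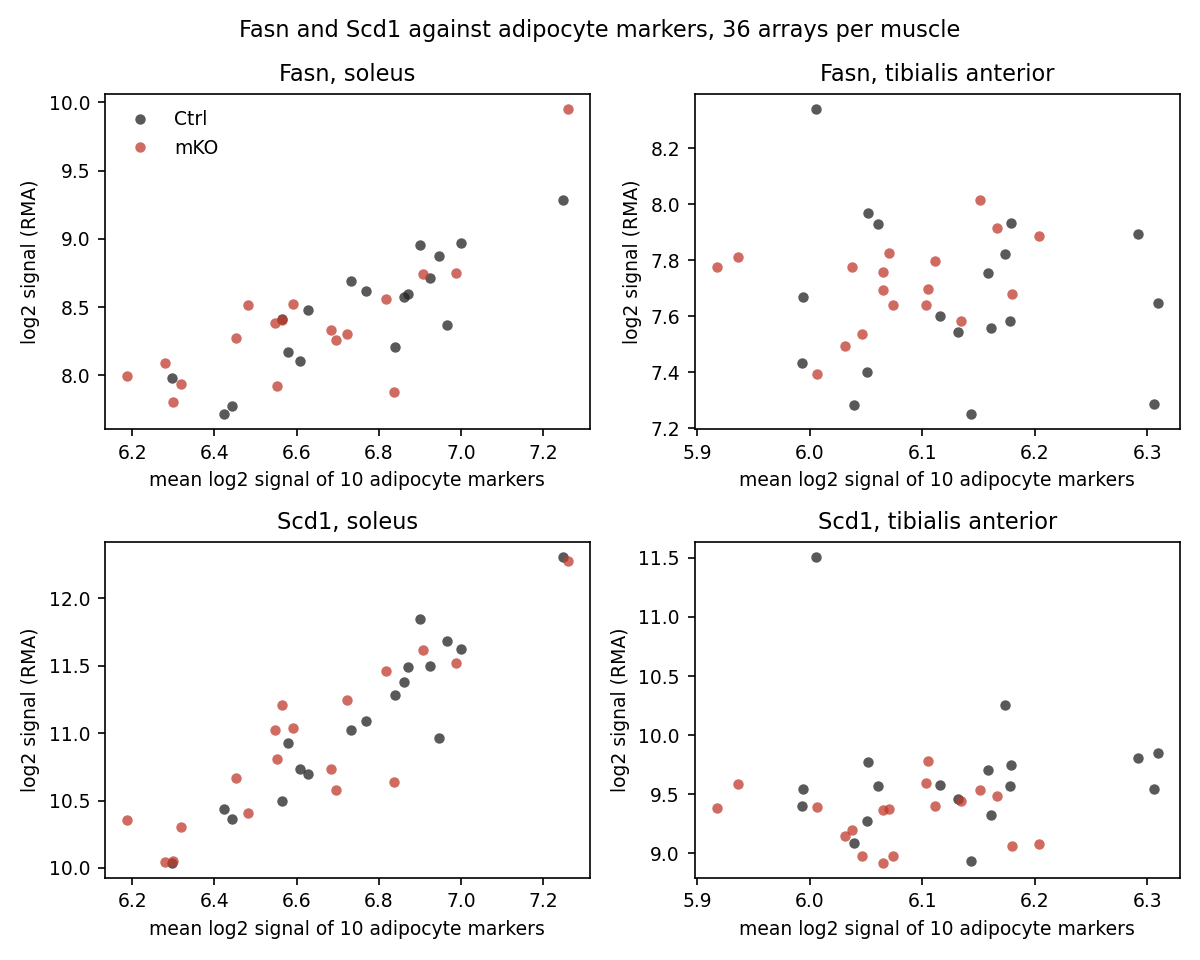
Log2 signal of Fasn (top) and Scd1 (bottom) against the mean log2 signal of 10 adipocyte markers in SOL (left) and TA (right), 1 point for each of 36 arrays a muscle, with Ctrl in black and mKO in red. In SOL the points climb with the marker mean (r within groups 0.93 for Fasn and 0.94 for Scd1), and in TA the marker mean spans 5.92 to 6.31 only.

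The other genes of the pathway were taken from 5 lists, whose counts stand against the 7.1% of all genes that passed the genotype test in SOL and the 14.8% in TA. Of 19 measured regulators of SREBP-1 and liver X receptors, 1 rose in mKO SOL (Fbxw7, which marks SREBP for degradation, by 0.18, adjusted p 0.0094), and in mKO TA 2 rose and 5 fell. Srebf2, the sterol-sensing sister of Srebf1, rose in TA by 0.14 (adjusted p 0.00669). Insig1, which holds SREBP in the endoplasmic reticulum, fell by 0.24 (adjusted p 0.0129), Rxra, the partner of liver X receptors, by 0.17 (adjusted p 0.000135), and Mlxipl, the glucose-sensing ChREBP, by 0.16 (adjusted p 0.0136). The median of the list was 0.03 in SOL and 0.00 in TA.

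Of 16 genes that supply acetyl-CoA and NADPH, 2 rose and 1 fell in mKO SOL, and 4 rose and 3 fell in mKO TA, with list medians of -0.01 and 0.02. The malic enzymes Me1 and Me3 rose in both muscles, Me1 by 0.21 and 0.26 (SOL adjusted p 0.000391, TA adjusted p 0.00532), and Me3 by 0.16 (adjusted p 0.000679) and 0.25 (adjusted p 1.38e-08). Idh1, the cytosolic isocitrate dehydrogenase, fell by 0.21 in SOL (adjusted p 0.0334) and by 0.28 in TA (adjusted p 0.00733), and Me2 fell by 0.33 in TA (adjusted p 0.000173).

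Of 25 genes of elongation, desaturation and fatty acid activation, 1 rose and 3 fell in mKO SOL and 4 rose and none fell in mKO TA, with list medians of -0.04 and -0.02. The 4 of 25 in TA are close to the 14.8% of all genes. Tecr, the reductase of the last elongation step, rose by 0.45 in TA (adjusted p 3.41e-12), and the acyl-CoA thioesterase Acot7 by 0.24 (adjusted p 5.74e-06). In SOL, the acyl-CoA synthetases Acsl4 and Acsl3 fell by 0.30 (adjusted p 1.75e-05) and 0.25 (adjusted p 0.00745).

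Of 21 genes that control acetyl-CoA carboxylase or use malonyl-CoA, 2 rose and 5 fell in mKO SOL and 2 rose and 9 fell in mKO TA. The list median was -0.02 in SOL and -0.09 in TA. Mlycd, which degrades malonyl-CoA, rose by 0.20 in SOL (adjusted p 0.0374) and by 0.21 in TA (adjusted p 0.00059). In TA the subunits Prkag2 and Prkab2 of AMP-activated kinase, which phosphorylates and inhibits the carboxylases, fell by 0.48 (adjusted p 1.18e-07) and 0.26 (adjusted p 3.76e-06). Trib1, a pseudokinase that brings targets to the ubiquitin ligase COP1, fell by 0.21 in SOL (adjusted p 0.0138) and by 0.41 in TA (adjusted p 2.36e-06). Its daily rhythm peaked near the same hour as that of Mid1ip1, at ZT16.3 in Ctrl SOL (amplitude 0.39, adjusted p 4.8e-05) and ZT16.0 in Ctrl TA (amplitude 0.25, adjusted p 0.0215). Cpt1a, a mitochondrial carnitine acyltransferase that malonyl-CoA inhibits, peaked in the light, at ZT8.2 in Ctrl SOL (amplitude 0.47, adjusted p 0.000154) and ZT6.9 in Ctrl TA (amplitude 0.43, adjusted p 4.59e-05). Cpt1b, another carnitine acyltransferase of the list, rose in mKO TA by 0.09 (adjusted p 0.0378, limma).

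Of 18 measured genes known to respond to fasting and insulin, 10 passed for a daily rhythm in Ctrl SOL, 7 in mKO SOL, 7 in Ctrl TA and 6 in mKO TA, where 6.05%, 5.68%, 2.7% and 1.76% of all genes passed. In the same order, 2, 4, 3 and 0 of the 19 regulators, 2, 2, 0 and 0 of the 16 supply genes, 4, 3, 1 and 0 of the 25 elongation genes and 4, 3, 3 and 2 of the 21 carboxylase and malonyl-CoA genes passed. The median amplitudes of the 18 fasting and insulin genes were 0.18, 0.13, 0.21 and 0.14. Ucp3, an uncoupling protein induced by fasting, peaked at ZT8.2 in Ctrl SOL (amplitude 1.003, adjusted p 3.13e-06) and at ZT8.5 in mKO SOL (1.14, adjusted p 4.38e-07). Pdk4, the kinase that shuts off pyruvate dehydrogenase in fasting, peaked at ZT5.9 in Ctrl SOL (amplitude 0.54, adjusted p 3.65e-05) and at ZT9.6 in mKO TA (1.01, adjusted p 1.01e-05). Those 2 sets differ in both muscle and genotype and were not compared with each other. Irs1, the insulin receptor substrate, peaked at ZT21.3 in Ctrl SOL (amplitude 0.66, adjusted p 4.1e-09) and at ZT21.1 in Ctrl TA (0.57, adjusted p 0.000149). Pnpla3, a SREBP-1 target in liver, rose in mKO by 0.40 in SOL (adjusted p 0.00043) and by 0.59 in TA (adjusted p 4.97e-14). Its rhythm in TA differed between genotypes by the F test (adjusted p 9.61e-05), with an amplitude lower by 0.44 in mKO. It was the 1 gene of the 18 that passed this test there. The genotype effect over this list was 4 higher and 2 lower in SOL and 3 higher and 3 lower in TA.

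The genes whose pattern over the 24 group means was most like that of a member were listed as a description, since the points share muscle, genotype and time. For Srebf1 they were Rnf187, Stk40, Spsb3, Arl3 and Mast4, each with a Pearson r of 0.97. For Acacb they were Card6, Uvrag, Ggnbp2, Slc25a20 and Poc1b, with r of 0.91 to 0.92. For Fasn they were Fat4, Myh10, Arfgef2, Kctd1 and Ccar1, with r of 0.92 to 0.93. For Scd1 they were Ptprd, Antxr1, Retn, Reep6 and Abca5, with r of 0.95 to 0.96, and Retn is 1 of the adipocyte markers. The 24 means hold 12 of each muscle, and the part of the muscle difference in these patterns was not tested.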

How the data were processed

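The deposited values were log2 signals, 1 for each probe set and array, that the authors made with RMA (robust multi-array averaging) per the submitters' processing notes (no version given). Of 21225 probe sets, 986 had no symbol in the annotation, and the 20239 with 1 symbol were tested, with no filter and no further scaling. Array medians lay between 6.67 and 6.84, the number of arrays sets the precision, and the count of 3 arrays a group limits single times most.

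In R 4.3.3, limma 3.58.1 (lmFit, eBayes) fitted the 12 group means of each muscle on its 36 arrays. Contrasts gave the genotype effect, the single times and the dark times against the light times. A 24-hour cosine model gave the rhythms, tested with an F test, and amplitudes carry the bias of never being negative. TA minus SOL was fitted on differences within animals, since the labels give 1 animal identifier to both muscles. P-values were adjusted by Benjamini-Hochberg over all 20239 genes, and intervals are 1.96 SE each way. The steps were tested on simulated data.

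All 10 genes were named in each comparison, and of each pathway list up to 3 genes a direction with the smallest p among those called. Members and lists were chosen with earlier results of these data known. Replicate letters A to C were shared by all groups and were not used as a block in the main fits. With group means removed, the SOL and TA arrays of an animal had a median correlation of 0.05 (36 pairs, -0.20 to 0.35, 11 over 0.1). The labels call the animals biological replicates. Age and sex stood under each other's tag in the labels and were read by their content. Alternatives were the letter and the animal series as blocks, series taken alone, array weights, other scalings, a level filter, other eBayes settings, other rhythm tests, an adipocyte covariate, unpaired muscles, and leaving out each animal. Leaving out both liver-bearing animals, and BM3 animals alone at single times and for TA minus SOL, were chosen after seeing the data.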

Additional observations from a re-analysis of the deposited data

Results flagged for a closer look

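For 3 results a test of the difference between groups passed. The daily rhythm of Mid1ip1 in TA differed between genotypes by an F test of amplitude and peak time together (adjusted p 0.00645, limma, 18 animals in each genotype). Its fitted amplitude was lower in mKO, with a difference of -0.46. The genotype effect on Acaca was larger in TA than in SOL, which gave a difference of TA minus SOL between genotypes of -0.40 (adjusted p 0.0248). The same difference for Mid1ip1 was -0.29 (adjusted p 0.0126). None of the 3 passed among the BM3 animals alone, where the Mid1ip1 amplitude difference was -0.39 and the Acaca and Mid1ip1 muscle differences were -0.42 and -0.22, and the part of the animal series in them was not tested further. The BM3 animals do not cover ZT12, nor ZT20 in mKO.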

How the results depend on the processing

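Over 16 other settings and 36 left-out animals no single gene's called difference changed sign. Amplitudes are never negative, so this check does not apply to them. Among values not called, 196 changed sign on leaving out 1 animal and 88 in the other settings. Counts of the 10 genes that moved by more than 1.5 times were these. With the animal series as a block the calls were 3 (of 5) for single times in TA, 1 (of 3) for the mKO SOL rhythm, 1 (of 4) for the Ctrl TA rhythm, 0 (of 1) for the mKO TA rhythm, 1 (of 2) for dark minus light in mKO SOL and 1 (of 2) for the genotype difference of TA minus SOL. With BM3 animals alone they were 0 (of 1) for the genotype effect in SOL, 3 (of 5) in TA, 0 (of 3) for the mKO SOL rhythm, 1 (of 4) for the Ctrl TA rhythm, 0 (of 1) for the mKO TA rhythm, 0 (of 1) for the rhythm difference in TA and 0 (of 2) for the genotype difference of TA minus SOL, and BM2 and BM2* animals alone gave 1 (of 5) for the genotype effect in TA. On the 4 times that BM3 animals of both genotypes cover, an alternative added after seeing the data, SOL had 1 call (of 2). Those sets hold fewer samples, and BM3 has no animal at ZT12 and no mKO animal at ZT20. The rhythm difference in SOL went from 0 to 1 after quantile normalisation and on probe sets above the median level. The mKO TA rhythm count of 1 became 2 with array weights and with both liver-bearing animals left out, and 0 with median centring, the adipocyte covariate, a test of any difference among the 6 times and a fit on those arrays alone, which also gave 1 (of 4) in Ctrl TA. The cause was not tested.

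Leaving out 1 animal at a time gave 2 to 4 calls for the Ctrl TA rhythm (lowest without Ctrl ZT0 replicate B or ZT12 replicate C), 0 to 1 for the mKO TA rhythm, 0 to 1 for the rhythm difference in SOL, 1 to 2 for dark minus light in mKO SOL, 0 to 1 in mKO TA, 1 to 2 for the genotype difference of TA minus SOL and 4 to 8 for single times in TA (highest without Ctrl ZT0 replicate B). Among single genes, 66 of these fits lost a call and 19 gained one. Using the replicate letter as a block moved no count by more than 1.5 times, and Mid1ip1 in TA stayed at -0.79 (adjusted p 5.44e-13). Dark minus light in mKO and its genotype difference were not run with BM3 animals alone, because mKO has no BM3 animal at ZT20. TA minus SOL in BM3 animals alone, over the times they hold and also added after seeing the data, passed for 9 genes in Ctrl and 8 in mKO. With 3 animals a group, the smallest difference of a member called at a single time was -0.28 (Acacb in TA at ZT12).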

Other observations

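Among markers of the other cells in whole muscle, some endothelial genes had a called daily rhythm. Of 5 endothelial markers, 3 passed in Ctrl SOL and 2 each in mKO SOL, Ctrl TA and mKO TA, where 6.05%, 5.68%, 2.7% and 1.76% of all genes passed. The mean of the 5 was lowest at ZT12 and highest at ZT4 in each of the 4 sets, from 9.08 to 9.48 in Ctrl SOL and from 9.05 to 9.47 in Ctrl TA. The SOL and TA sets of a genotype come from the same animals. All ZT12 animals were BM2 or BM2* and all ZT4 animals BM3, so time and series cannot be told apart between them. Kdr, the main receptor for vascular endothelial growth factor, had an amplitude of 0.37 in Ctrl SOL (peak ZT0.145, adjusted p 6.66e-06) and 0.34 in Ctrl TA (peak ZT1.06, adjusted p 0.00238). Cldn5, a tight-junction protein of vessels, had 0.39 in Ctrl SOL (peak ZT3.2, adjusted p 0.0002) and 0.42 in mKO TA (peak ZT2.9, adjusted p 0.00515), 2 sets that differ in muscle and genotype and were not compared. The part of endothelial cells in the Scd2, Elovl6 and Fasn rhythms was not tested.

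Some markers of these other cells passed the test between genotypes, which 7.1% of all genes passed in SOL and 14.8% in TA. The mean of 8 slow-fibre genes was 13.23 in Ctrl SOL and 13.17 in mKO SOL, and 8.01 and 8.07 in TA. The mean of 8 fast-fibre genes was 12.25 in Ctrl SOL and 12.27 in mKO SOL, and 13.38 and 13.41 in TA. Kdr rose in mKO SOL by 0.22 (adjusted p 0.00287), the 1 of 5 endothelial markers that passed. Of 4 measured Schwann cell markers, Mbp, a myelin protein, fell by 0.28 in mKO SOL (adjusted p 4.43e-05). Of 6 fibroblast and tendon markers, Scx, a transcription factor of tendon, rose by 0.28 in mKO SOL (adjusted p 5.65e-05) and Dpt fell by 0.24 in mKO TA (adjusted p 0.0103). None of 6 macrophage, 3 erythroid or 15 liver markers passed for a genotype effect in either muscle by limma (unadjusted, 0 and 1 of the macrophage, 1 and 0 of the erythroid and 1 and 0 of the liver markers were under 0.05 in SOL and TA). Adig, an adipocyte gene, fell by 0.66 in mKO SOL (adjusted p 1.73e-07) and by 0.34 in mKO TA (adjusted p 5.42e-06), more than the mean of its list.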
